A study of Mus musculus with 12 samples.

Results

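*Nacad*, *Nt5dc2*, *Hint1*, *Arl4a* and *Adgrb2* are 5 genes whose RNA was lower in every left atrial (LA) library from mice with activated Notch than in every library from their littermate controls. They were taken from the 54658 gene names of the count table, of which 13541 passed a filter on low counts and were tested. Because the genes were chosen on this contrast, their values in the 2 genotypes are given as a description, with no p. All 5 genes had more than 1 normalized CPM (counts scaled to the depth of the library) in 6 of 6 control and 6 of 6 iNICD libraries, so none passed the filter through 1 group alone.

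The 6 iNICD mice carried *αMHC-rtTA* and *tetO_NICD*, and the 6 controls carried *αMHC-rtTA* without the second transgene. The *αMHC* promoter drives the reverse tetracycline transactivator in cardiomyocytes, and with doxycycline this transactivator switches on the Notch1 intracellular domain (NICD). All mice, of a mixed background and 2 to 3 months old at the start, ate doxycycline chow during 3 weeks with no washout, so neither the drug nor the transactivator separates them. The controls included 4 females and the iNICD group 3, the rest being male (2 and 3), and the LA of each mouse was 1 library of whole tissue. In such tissue fewer cells of a type and less RNA per cell cannot be told apart.

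*Notch1*, which was counted together with the reads of its transgenic part, ran from 2335 to 3311 counts in controls and from 71187 to 107667 in iNICD mice, which goes with the labelled genotypes. Totals ran from 21432632 to 27182038 counts per library, and the ranges of the groups overlapped. Control replicate 5, a male, stood apart on the first principal component (−77.41, against −20.22 to 7.98 for the other controls), and values without it are given below.

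Released NICD enters the nucleus, joins the DNA-binding protein RBPJ and switches on transcriptional repressors of the Hes and Hey families. The 5 genes are not among the classical targets of this pathway and belong to unrelated families. *Nacad* encodes a relative of the alpha subunit of the nascent polypeptide-associated complex (NAC), which meets new protein chains at the ribosome. *Nt5dc2* encodes a protein with a nucleotidase domain whose substrate is little known. *Hint1* encodes a histidine triad nucleotide hydrolase that also binds transcription factors. *Arl4a* encodes a small GTPase of the ARF-like family, which draws cytohesins and ELMO proteins to the plasma membrane. *Adgrb2*, also called *Bai2*, encodes an adhesion G protein-coupled receptor (GPCR) best known from the brain.

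The genes lay at separate places in the mouse genome (GRCm38, mm10), and all are annotated as protein coding. *Nacad* was at chr11:6597823-6606053 on the minus strand, *Hint1* at chr11:54866383-54870501 on the plus strand and *Nt5dc2* at chr14:31131053-31139124 on the plus strand. *Arl4a* was at chr12:40005447-40038025 on the minus strand and *Adgrb2* at chr4:129984870-130022633 on the plus strand.

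Promoter sequence from RefSeq (assembly GRCm38.p6) was at hand for 4 of the 5 genes, in 6 windows that each run from 250 bases before an annotated start to 50 bases after it. All 6 are shown as the annotated starts of these genes. Counts per gene do not tell which start was used. Capitals mark matches, on either strand, to the RBPJ core TGGGAA or to sites that Hes and Hey proteins can bind (E-box CACGTG, class C site CACGCG, N-box CACNAG). The overlap between these motifs was not removed, and a match is a run of letters and not a shown binding site.
Nacad, first window, chr11:6606005-6606304, minus strand: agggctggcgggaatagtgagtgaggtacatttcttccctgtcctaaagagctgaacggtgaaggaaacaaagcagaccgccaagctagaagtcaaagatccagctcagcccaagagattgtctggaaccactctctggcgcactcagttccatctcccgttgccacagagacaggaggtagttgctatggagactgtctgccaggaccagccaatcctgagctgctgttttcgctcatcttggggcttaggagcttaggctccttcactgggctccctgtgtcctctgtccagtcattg
Nt5dc2, first window, chr14:31130839-31131138, plus strand: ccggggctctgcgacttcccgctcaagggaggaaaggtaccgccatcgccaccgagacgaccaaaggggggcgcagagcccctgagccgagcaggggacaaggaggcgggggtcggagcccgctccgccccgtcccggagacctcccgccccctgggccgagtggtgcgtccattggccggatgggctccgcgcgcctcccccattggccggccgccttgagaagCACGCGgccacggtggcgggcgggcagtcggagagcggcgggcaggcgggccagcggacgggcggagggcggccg
Nt5dc2, second window, chr14:31134486-31134785, plus strand: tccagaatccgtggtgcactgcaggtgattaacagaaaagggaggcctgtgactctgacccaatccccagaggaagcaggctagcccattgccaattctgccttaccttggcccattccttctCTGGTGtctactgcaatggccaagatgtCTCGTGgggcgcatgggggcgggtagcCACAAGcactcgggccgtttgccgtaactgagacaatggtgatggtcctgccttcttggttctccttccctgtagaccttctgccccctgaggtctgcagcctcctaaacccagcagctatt
Arl4a, first window, chr12:40037327-40037626, minus strand: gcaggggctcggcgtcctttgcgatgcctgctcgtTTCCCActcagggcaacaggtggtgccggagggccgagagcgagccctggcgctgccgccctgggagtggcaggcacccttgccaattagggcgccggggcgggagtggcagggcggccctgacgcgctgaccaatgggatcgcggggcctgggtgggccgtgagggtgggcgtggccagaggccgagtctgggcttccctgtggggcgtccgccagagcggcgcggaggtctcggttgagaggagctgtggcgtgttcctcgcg
Arl4a, second window, chr12:40037938-40038237, minus strand: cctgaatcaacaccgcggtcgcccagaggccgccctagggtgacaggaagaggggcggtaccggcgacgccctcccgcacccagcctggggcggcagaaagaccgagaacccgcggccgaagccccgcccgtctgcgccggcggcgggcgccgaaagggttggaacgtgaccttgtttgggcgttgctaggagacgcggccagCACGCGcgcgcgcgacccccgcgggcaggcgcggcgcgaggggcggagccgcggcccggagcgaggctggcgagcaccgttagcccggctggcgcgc
Adgrb2, chr4:129984620-129984919, plus strand: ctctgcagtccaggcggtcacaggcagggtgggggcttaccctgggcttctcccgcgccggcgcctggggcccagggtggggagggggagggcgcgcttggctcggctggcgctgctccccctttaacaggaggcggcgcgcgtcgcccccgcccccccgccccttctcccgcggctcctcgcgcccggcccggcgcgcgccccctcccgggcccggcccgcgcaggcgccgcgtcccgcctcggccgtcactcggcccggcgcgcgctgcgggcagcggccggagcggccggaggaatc

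The windows shared no motif across all 4 genes. The RBPJ core, found in 25.6% of all 32851 windows of the genome, occurred in 1 of the 6, the first window of *Arl4a*, as its reverse complement 215 bases before the start. The class C site, found in 9.27% of all windows, occurred in the first window of *Nt5dc2* and in the second window of *Arl4a*. The N-box occurred 3 times in the second window of *Nt5dc2*, and 42.5% of all windows hold it. The E-box CACGTG, found in 7.15% of all windows, was in none of the 6, and the windows of *Nacad* and *Adgrb2* held none of the 4 motifs. The windows also differed in base composition, with 53.7% G or C for *Nacad* and 81.7% for *Adgrb2*, against a median of 52.7% over all windows.

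*Nacad* showed the widest separation of the 5. In control replicates 1 to 6 it measured 37.2, 33.5, 32.9, 34.7, 40.6 and 24.7 normalized CPM. In iNICD replicates 1 to 6 it measured 1.87, 3.70, 2.92, 1.17, 4.22 and 3.49. The lowest control library therefore held 5.85 times the level of the highest iNICD library, the widest such gap among the 169 genes whose groups did not overlap in this direction. Such genes made up 1.25% of all tested genes (2.58% in the other direction), and the 5 genes are among them by choice. The mean was 33.9 ± 5.33 CPM (SD, n = 6) in controls and 2.90 ± 1.16 (SD, n = 6) in iNICD libraries, 11.7-fold lower, with 8.53% of the control level remaining. The iNICD values rest on 31 to 101 counts per library, and control replicate 6 and iNICD replicate 4 were the lowest of their groups.

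*Nt5dc2* had the smallest spread of the 5 relative to its mean within the iNICD group (coefficient of variation 8.02%). The control libraries measured 46.1, 45.6, 46.3, 40.7, 36.4 and 46.8 normalized CPM in replicates 1 to 6. The iNICD libraries measured 19.1, 20.7, 20.1, 16.7, 17.6 and 19.5. All control libraries but replicates 4 and 5 lay between 45.6 and 46.8, and control replicate 5, the library that stood apart, was the lowest. The mean was 43.6 ± 4.21 CPM (SD, n = 6) against 18.9 ± 1.52 (SD, n = 6), 2.30-fold lower, and the gap between the nearest libraries was 1.76-fold. The gene overlaps *Stab1*, on the other strand, by 112 bases. *Stab1*, a scavenger receptor gene, measured 265.7 CPM in controls and its log2 fold change was −0.03 (adjusted p = 0.803, edgeR quasi-likelihood test).

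*Hint1* was the most abundant member with the smallest difference. It measured 151, 145.7, 144.8, 157, 175.7 and 168 normalized CPM in control replicates 1 to 6. The iNICD replicates measured 79.2, 88.9, 89.4, 91.0, 100.9 and 105.4. The groups were separated by a 1.37-fold gap, with control replicate 3 the lowest control and iNICD replicate 6 the highest iNICD library. The mean was 157 ± 12.6 CPM (SD, n = 6) in controls and 92.5 ± 9.37 (SD, n = 6) in iNICD libraries, 1.70-fold lower.

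*Arl4a* kept about the same share of its control level as *Nt5dc2* and varied more between iNICD libraries. The control libraries measured 52.2, 44.6, 53.5, 50.05, 47.8 and 59.5 normalized CPM in replicates 1 to 6. The iNICD libraries measured 18.5, 22.2, 20.4, 17.3, 30.9 and 25.3, with replicates 5 and 6, both male, above the rest. The mean was 51.3 ± 5.14 CPM (SD, n = 6) against 22.4 ± 5.02 (SD, n = 6), 2.29-fold lower, and 43.7% of the control level remained.

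*Adgrb2* was the least abundant member in controls. It measured 16.4, 18.2, 17.8, 22.2, 18.4 and 21.01 normalized CPM in control replicates 1 to 6. The iNICD replicates measured 7.60, 8.60, 8.58, 7.23, 10.1 and 11.5, and here too replicates 5 and 6 were the highest. The mean was 19.002 ± 2.15 CPM (SD, n = 6) against 8.93 ± 1.602 (SD, n = 6), 2.13-fold lower, and the nearest libraries of the groups differed 1.43-fold.

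**Figure D1:**
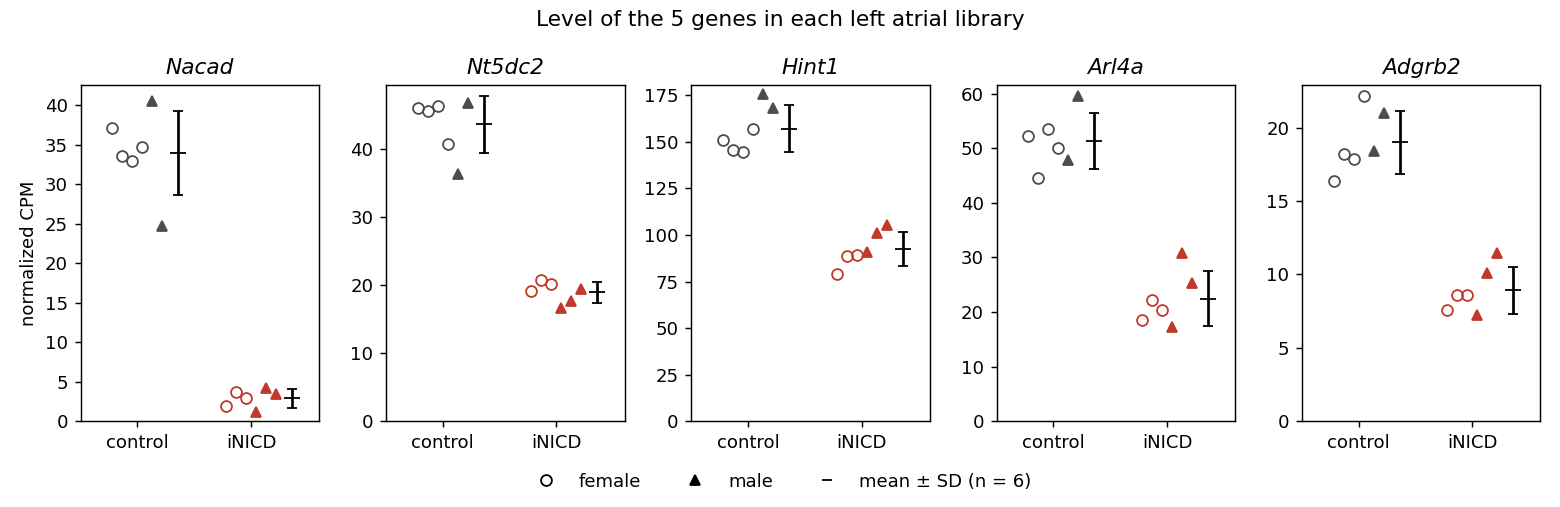
Normalized CPM (vertical axes, each from 0) of the 5 genes in each of the 12 LA libraries, by genotype, with replicates 1 to 6 from left to right. Open circles are females, filled triangles are males, and black bars are the mean ± SD of 6 libraries. In each panel every iNICD library lies below every control library, by a 5.85-fold gap for *Nacad* and a 1.37-fold gap for *Hint1*.

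On the log2 scale of the fit the difference (iNICD minus control) was −3.55 for *Nacad*, −1.20 for *Nt5dc2*, −1.19 for *Arl4a*, −1.09 for *Adgrb2* and −0.76 for *Hint1*, beside a median of −0.01 over all tested genes. Of all tested genes 181 (1.34%) were called lower and 2.78% higher at an adjusted p under 0.05 (edgeR), and 104 of the 169 non-overlapping lower genes were among the 181. The count of genes called lower was 90 to 310 with 1 library left out and 444 with DESeq2. Without control replicate 5 the differences were −3.4995 for *Nacad*, −1.25 for *Nt5dc2*, −1.21 for *Arl4a*, −1.10 for *Adgrb2* and −0.73 for *Hint1*.

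By the gap between the lowest control and the highest iNICD library, the members took ranks 1 (*Nacad*), 5 (*Nt5dc2*), 8 (*Arl4a*), 10 (*Adgrb2*) and 11 (*Hint1*) of the 169 non-overlapping lower genes. In the order of the fit they lead that set, which is a description, with *Gm13054* among them at rank 4. *Gm13054* had 19.8 ± 3.63 CPM in controls and 3.96 ± 1.53 in iNICD libraries (SD, n = 6) and overlaps *Nppa* by 989 bases on the opposite strand. Reads of an overlapping pair may not be told apart, as the strand setting of the counting is not given. Next in that order were *Myl4*, the atrial essential myosin light chain, *Nppa*, the atrial natriuretic peptide, and *Tmem117*. *Myl4* measured 7654 ± 464 CPM in controls and 4547 ± 516 in iNICD libraries, *Nppa* 24221 ± 3866 and 4821 ± 2060, and *Tmem117* 9.22 ± 1.06 and 4.65 ± 0.619 (SD, n = 6 each).

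To compare levels between genes, the normalized CPM were divided by the length of the exons in kilobases. In controls *Hint1* was highest, with 180.1 ± 14.4 CPM per kb (SD, n = 6), followed by *Nt5dc2* with 18.4 ± 1.77, *Nacad* with 6.94 ± 1.09, *Arl4a* with 6.66 ± 0.667 and *Adgrb2* with 2.93 ± 0.332. *Nacad* (5.05 to 8.30) and *Arl4a* (5.79 to 7.73) overlapped, and the other neighbours in this order did not. In iNICD libraries *Hint1* measured 106.05 CPM per kb, *Nt5dc2* 7.97, *Arl4a* 2.91, *Adgrb2* 1.38 and *Nacad* 0.592, so *Nacad* moved from the third place to the last. Among the 13541 tested genes, *Nacad* went from percentile 59.9 in controls to percentile 7.90 in iNICD libraries. *Hint1* stayed near the top, at percentiles 98.8 and 97.9, while *Arl4a* went from 58.7 to 35.4, *Nt5dc2* from 83.4 to 64.1 and *Adgrb2* from 35.5 to 19.5.

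**Figure D2:**
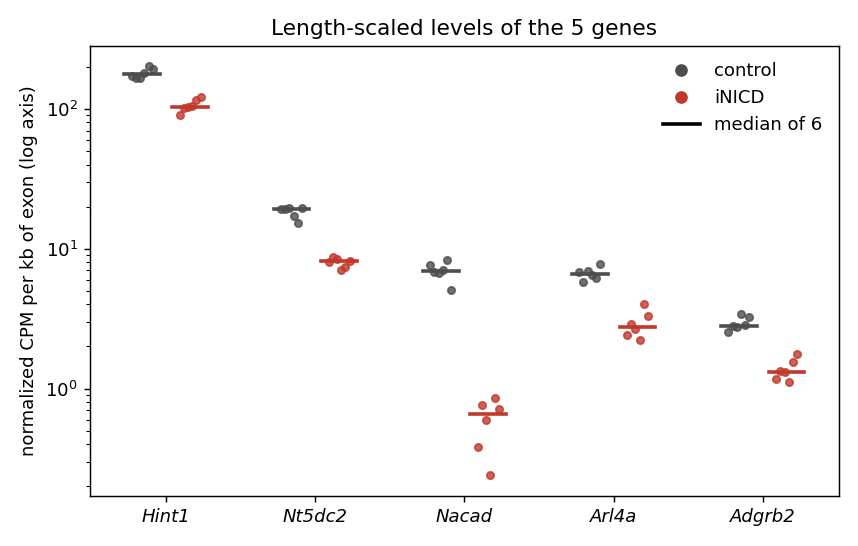
Normalized CPM per kb of exon (logarithmic axis) of the 5 genes in each control (grey) and iNICD (red) library, with lines at the median of 6 libraries. *Hint1* lies above the other genes in both groups, and *Nacad* lies beside *Arl4a* in controls and below all others in iNICD libraries.

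The spread between libraries of a group also differed between the genes. For *Nacad* the coefficient of variation was 15.7% in controls and 40.2% in iNICD libraries, where counting error alone at its mean count would give 11.9%. For *Arl4a* it was 10.02% and 22.4%, for *Adgrb2* 11.3% and 17.9%, for *Hint1* 7.995% and 10.1%, and for *Nt5dc2* 9.65% and 8.02%. Over all tested genes the median was 16.5% in controls and 11.7% in iNICD libraries. The choice of genes with non-overlapping groups favours a small spread, so these values are only a description beside that median. In the iNICD group replicate 4, which had the highest *Notch1* level, held the lowest value of 4 of the 5 genes, all but *Hint1*.

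Whether the levels differed between the sexes was tested with genotype in the model. *Hint1* was higher in males than in females of the same genotype, with no overlap in either genotype. The gap was narrow in iNICD mice, where the lowest male had 91.0 CPM and the highest female 89.4. How many of all tested genes separate the sexes in this way was not counted. The means were 171.9 CPM in males and 149.6 in females among controls, and 99.1 in males and 85.8 in females among iNICD mice. The log2 difference (male minus female) was 0.20 (SE 0.05, unadjusted p = 0.00296) and did not pass after adjustment in edgeR (adjusted p = 0.142), where 0.288% of tested genes passed. In DESeq2, which called 3.66% of tested genes, it passed (adjusted p = 0.0137). For the other members the difference was −0.02 for *Nacad* (SE 0.26), −0.13 for *Nt5dc2* (SE 0.07), 0.19 for *Arl4a* (SE 0.13) and 0.15 for *Adgrb2* (SE 0.12), with adjusted p of 0.465 to 0.982 in edgeR.

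A lower level in iNICD mice of both sexes is fixed by the choice of genes with non-overlapping groups, so its size in each sex is given as a description. *Nacad* was 12.2-fold lower in females and 11.03-fold lower in males, *Nt5dc2* 2.24-fold and 2.32-fold, *Hint1* 1.74-fold and 1.73-fold, *Arl4a* 2.46-fold and 2.19-fold, and *Adgrb2* 2.26-fold and 2.05-fold. The interaction of sex and genotype, as a log2 difference of the male from the female change, ran from −0.05 (SE 0.16) for *Nt5dc2* to 0.16 (SE 0.26) for *Arl4a*, and its standard error reached 0.54 for *Nacad*. Without control replicate 5 it was 0.54 for *Nacad* and −0.23 for *Nt5dc2*. None of the 5 passed (edgeR adjusted p of 0.931 to 0.995, with 0 of the 5 also at an unadjusted p under 0.05 in edgeR and in DESeq2). This outcome is favoured by the choice of genes that were lower in every iNICD library of both sexes, so it does not show an equal change. Over all genes 0% passed in edgeR, with 501 at an unadjusted p under 0.05, and DESeq2 called 1.

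Within genotypes, after the group means were removed, no pair of the 5 genes passed over 12 libraries among the 10 pairs compared (permutation test, lowest adjusted p = 0.143). The highest correlation was between *Arl4a* and *Adgrb2* (r = 0.708, permutation p = 0.0286, rho = 0.650, permutation p = 0.0463), and r was 0.622 without the 2 libraries farthest from the median. *Hint1* and *Adgrb2* followed (r = 0.692, permutation p = 0.0242, rho = 0.720, permutation p = 0.0151), with r = 0.681 without the 2 farthest. *Nacad* and *Arl4a* had r = 0.637 (permutation p = 0.0955, rho = 0.531, permutation p = 0.135), which fell to 0.309 without iNICD replicates 1 and 4. Taken apart, over 6 libraries each, r for *Nacad* and *Arl4a* was −0.699 in controls and 0.862 in iNICD libraries. It was 0.248 and 0.854 for *Arl4a* and *Adgrb2*, and 0.391 and 0.846 for *Hint1* and *Adgrb2*. The difference between the groups was not tested. For *Nt5dc2* r with the others was lower, between −0.400 (with *Hint1*) and 0.175 (with *Arl4a*).

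Among the 6 iNICD libraries, r with the *Notch1* level was negative for all 5 genes, but none passed. It was −0.687 for *Adgrb2* (exact permutation p = 0.135), −0.671 for *Arl4a* (exact permutation p = 0.15), −0.600 for *Nacad* (exact permutation p = 0.175), −0.368 for *Hint1* (exact permutation p = 0.472) and −0.168 for *Nt5dc2* (exact permutation p = 0.760). Spearman's rho was −0.714, −0.771, −0.600, −0.429 and 0.0857 in the same order, with exact permutation p of 0.103 to 0.919. After adjustment over the 5 genes the p of r was 0.292 to 0.760. Without iNICD replicates 2 and 4, the 2 farthest from the median of *Notch1*, the sign for *Nt5dc2* turned (r = 0.784), while r for the others was between −0.980 (*Arl4a*) and −0.771 (*Adgrb2*) over the 4 libraries left.

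**Figure D3:**
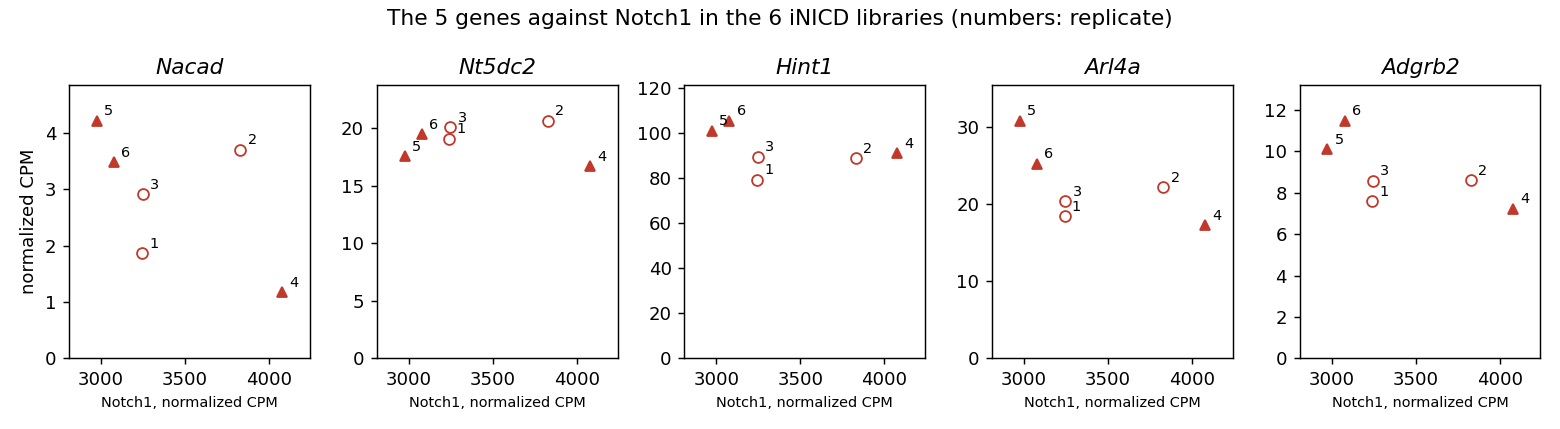
Normalized CPM of each gene (vertical axes, from 0) against normalized CPM of *Notch1* (horizontal axes) in the 6 iNICD libraries, numbered by replicate, with open circles for females and filled triangles for males. Replicate 4, with the highest *Notch1*, is lowest for all but *Hint1* (the share of all tested genes lowest there was not counted). The exact permutation p of r is between 0.135 and 0.760.

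The genes whose deviations within genotypes were most like those of each member, among 10953 tested genes averaging 5 CPM or more over 12 libraries, are given as a description. Closest to *Nacad* were *Dgkq* (r = 0.923), *Cebpa* (0.881) and *Cldn15* (0.853). Closest to *Nt5dc2* were *Pnpla6* (r = 0.975), *C1galt1* (0.916) and *Txndc16* (0.896). Closest to *Hint1* were *Coq10b* (r = 0.952), *Ndufa1* (0.9498), a subunit of respiratory complex I, and *Elob* (0.937). Closest to *Arl4a* were *Dctn6* (r = 0.891), *Arih2* (0.878) and *Naa10* (0.850), and closest to *Adgrb2* were *Borcs6* (r = 0.890), *Itpr3* (0.863) and *Bri3* (0.862). None of these 15 genes was called between the genotypes, where 4.12% of tested genes were called in either direction.

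None of the relatives and partners of the members was called lower. Of 73 such genes in 6 lists, 66 were tested, 2 rose, none fell and 64 did not pass (3.03% called, against 4.12% of all tested genes). Among them 16 had an unadjusted p under 0.05 in edgeR, and DESeq2 called 4 genes and none of them lower. Over all tested genes DESeq2 called 444 lower, against 181 in edgeR. The share of all tested genes at an unadjusted p under 0.05 was not counted, so the 16 cannot be set against it.

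For *Nacad*, the list held NAC and signal recognition particle genes, of which 0 of 14 tested passed in edgeR and in DESeq2 (2 at an unadjusted p under 0.05 in each; median log2 fold change −0.08). *Naca*, the ubiquitous NAC alpha subunit, measured 693.5 ± 143 CPM in controls and 620.3 ± 54.0 in iNICD libraries (SD, n = 6; log2 fold change −0.16, SE 0.12, adjusted p = 0.528, edgeR). Its partner *Btf3*, the beta subunit, measured 32.9 ± 3.71 and 31.5 ± 1.85 CPM (adjusted p = 0.6996, edgeR), and the signal recognition particle receptor gene *Srpr* had a log2 fold change of −0.16 (adjusted p = 0.267, edgeR).

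The nucleotidase list moved the other way from *Nt5dc2* at 2 of its 9 tested genes, and 0 fell. *Nt5c3*, a cytosolic pyrimidine nucleotidase, rose from 62.1 ± 13.5 to 106.6 ± 6.36 CPM (SD, n = 6; log2 fold change 0.78, SE 0.13, adjusted p = 0.00430, edgeR). *Nt5c1a*, which releases adenosine from AMP, rose from 13.2 ± 3.97 to 28.5 ± 6.79 CPM (log2 fold change 1.11, SE 0.22, adjusted p = 0.0121, edgeR), a call lost with a replicate block by the numbers in the descriptions. In males alone both calls were lost. The closest relatives of *Nt5dc2* did not pass, with 13.0 ± 0.633 and 14.9 ± 1.37 CPM for *Nt5dc1* (adjusted p = 0.188, edgeR) and 66.5 ± 8.69 and 63.8 ± 5.59 for *Nt5dc3* (adjusted p = 0.783, edgeR).

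In the histidine triad list 0 of 6 tested genes passed, and 0 had an unadjusted p under 0.05, in edgeR and in DESeq2 (median log2 fold change −0.16). *Hint2*, the mitochondrial relative of *Hint1*, measured 31.1 ± 6.65 and 26.9 ± 6.80 CPM (adjusted p = 0.587, edgeR), *Hint3* 14.5 ± 1.95 and 13.5 ± 1.25 (adjusted p = 0.626, edgeR), and *Aptx*, a DNA repair gene, 27.0 ± 2.88 and 28.8 ± 1.88 (adjusted p = 0.582, edgeR). Of 8 tested genes for proteins that bind HINT1, 0 passed in edgeR and in DESeq2 (2 at an unadjusted p under 0.05 in each). Among them *Mitf*, a transcription factor, measured 74.5 ± 10.4 and 67.3 ± 6.67 CPM (adjusted p = 0.465, edgeR) and *Kars*, the lysyl-tRNA synthetase, 101.3 ± 5.98 and 96.5 ± 6.44 (adjusted p = 0.582, edgeR).

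Of 15 tested relatives and partners of *Arl4a*, 0 passed in edgeR, with 6 at an unadjusted p under 0.05, and DESeq2 called 1 higher. That gene, *Arl4c*, a close relative, measured 10.9 ± 1.86 CPM in controls and 15.3 ± 2.70 in iNICD libraries (log2 fold change 0.49, SE 0.14, adjusted p = 0.0763, edgeR). The other close relative, *Arl4d*, measured 50.6 ± 27.6 and 30.6 ± 3.503 CPM (log2 fold change −0.73, SE 0.28, adjusted p = 0.183, edgeR). Without control replicate 5 edgeR called *Arl4c* and the cytohesin gene *Cyth4* higher and *Arl4d* lower. *Arl4c* was also called without iNICD replicate 6. *Rac1* and *Dock1*, which act downstream of ELMO proteins, had log2 fold changes of 0.00 and 0.03.

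Among adhesion GPCR genes 14 of 19 were tested and 0 passed in edgeR (2 at an unadjusted p under 0.05), while DESeq2 called *Adgrl1* higher. *Adgrl1*, a latrophilin gene, measured 144.1 ± 25.3 and 189.6 ± 26.4 CPM (log2 fold change 0.40, SE 0.12, adjusted p = 0.104, edgeR), and *Adgrf5* measured 163.4 ± 17.1 and 171.4 ± 12.7 (adjusted p = 0.688, edgeR). Of the family of *Adgrb2* the other two were too low to be tested, with 1 to 13 counts per library for *Adgrb1* and 0 to 2 for *Adgrb3*.

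**Figure D4:**
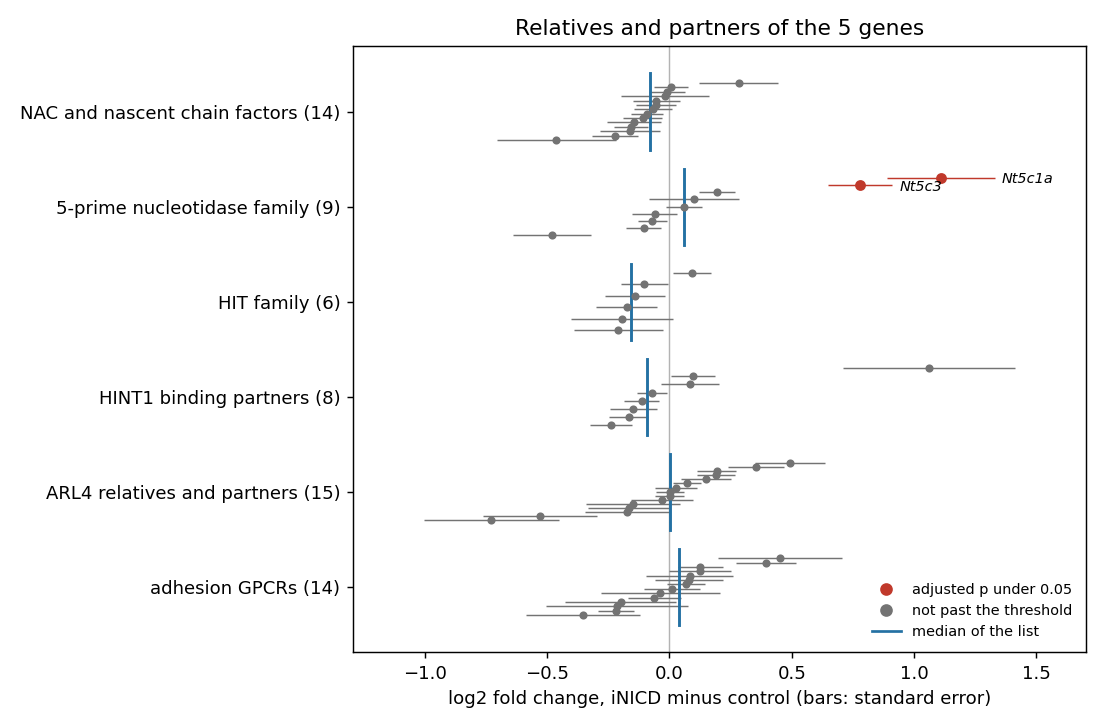
Log2 fold change (iNICD minus control) with its standard error for each tested relative or partner of the 5 genes, by list, with the number tested in brackets, the median of each list as a blue line and called genes in red. *Nt5c1a* and *Nt5c3* are to the right of 0, and no gene is called to the left.

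Whether the 5 genes mark 1 cell type was examined with lists of marker genes, none of which holds a member. Of 87 markers in 13 lists, 71 were tested, 1 rose and 5 fell (8.45% called, against 4.12% of all tested genes), and the 5 that fell were cardiomyocyte genes. *Nppa* measured 24221 and 4821 CPM (log2 fold change −2.33, SE 0.28, adjusted p = 3.39e-04, edgeR), *Myl4* had a log2 fold change of −0.75 (SE 0.09, adjusted p = 3.20e-04, edgeR), *Sln*, the calcium pump regulator sarcolipin, −0.64 (SE 0.12, adjusted p = 0.00803, edgeR), *Myl7*, the atrial regulatory light chain, −0.54 (SE 0.13, adjusted p = 0.0367, edgeR) and *Tnnt2*, cardiac troponin T, −0.44 (SE 0.09, adjusted p = 0.0153, edgeR). In the pericyte list *Cspg4*, a proteoglycan, rose from 46.5 ± 12.9 to 171.8 ± 30.3 CPM (log2 fold change 1.89, SE 0.17, adjusted p = 2.87e-05, edgeR), and the other 5 of that list did not pass. The summed pericyte list, which holds *Cspg4*, was higher in every iNICD library (584.9 to 737.1 CPM) than in any control (407.2 to 545.6). The sum without *Cspg4* was not taken, so this does not speak for the list as a whole. Of all tested genes 2.58% did not overlap in this direction.

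The atrial cardiomyocyte list, 4 of whose 6 genes fell, was present at summed levels of 35694 to 44666 CPM in controls and 10428 to 17534 in iNICD libraries. *Nppa* made up most of it in controls. The other 2 genes of the list, both for channel subunits, did not pass, with log2 fold changes of −0.34 for *Kcnj3* (adjusted p = 0.600, edgeR) and 0.00 for *Kcnj5* (adjusted p = 0.987, edgeR). With 1 library left out at a time, *Nppa*, *Myl4* and *Sln* were called in 12 of 12 fits and *Myl7* in 4, its call being lost in the other 8. *Kcnj3* was called in 1, without control replicate 5. The broader cardiomyocyte list, with 1 of 10 genes called, overlapped, at 78375 to 94946 and 69313 to 81566 CPM. In that list *Ckm* (log2 fold change −0.52, adjusted p = 0.261, edgeR) was called with sex as a covariate and in females alone. *Myh6*, the gene whose promoter drives the transactivator, measured 33643 ± 903 and 32890 ± 2034 CPM (adjusted p = 0.871, edgeR), and *Atp2a2*, the calcium pump, 16866 ± 844 and 16369 ± 1082 (adjusted p = 0.822, edgeR).

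In the lists of other resident cells 0 genes were called lower in edgeR with all libraries, and 1, *Mbp*, without control replicate 5 or without control replicate 6. The summed levels overlapped between the groups for endothelial cells (921.8 to 1331 and 872.7 to 1070 CPM; 1 of 9 at an unadjusted p under 0.05), fibroblasts (2789 to 4036 and 2887 to 4688; 0 of 7), smooth muscle (138.7 to 463.3 and 176.6 to 329.4; 1 of 6), epicardial and mesothelial cells (243.7 to 330.5 and 154.8 to 310.1; 0 of 6), macrophages (294.9 to 457.8 and 309.4 to 455.6; 0 of 7) and Schwann cells (61.5 to 82.2 and 59.2 to 68.0; 1 of 5). In DESeq2, which called 444 of all 13541 tested genes lower (181 in edgeR), *Egfl7*, of the endothelial list, and *Mbp*, the myelin basic protein gene, were also called lower. *Myocd*, of the smooth muscle list, was called higher in DESeq2. The share of all tested genes at an unadjusted p under 0.05 was not counted. The most abundant marker of each list did not pass in edgeR, with log2 fold changes of −0.23 for *Pecam1* (endothelial, adjusted p = 0.412), 0.08 for *Dcn* (fibroblast, adjusted p = 0.754), 0.34 for *Myocd* (smooth muscle, adjusted p = 0.110), −0.31 for *Upk3b* (epicardial, adjusted p = 0.291), 0.14 for *Csf1r* (macrophage, adjusted p = 0.614) and −0.28 for *Mbp* (Schwann cell, adjusted p = 0.0664). Nor did *Col3a1* (0.16), *Cdh5* (−0.05), *Cnn1* (−0.66), *Msln* (−0.31) and *Mrc1* (0.05), the second most abundant of their lists. The 6 epicardial genes had log2 fold changes of −0.31 to −0.14. The 5 blood genes, hemoglobins such as *Hbb-bs* (−1.31, adjusted p = 0.124, edgeR) and *Hba-a1* (−1.30, adjusted p = 0.205, edgeR) and the heme synthesis gene *Alas2*, had a median of −1.30, with all at an unadjusted p under 0.05 and the lowest adjusted p at 0.0664 in edgeR, and DESeq2 called 2 of them lower. Without control replicate 5 the median was −1.40. In edgeR 1 blood gene was called without control replicate 5 (*Hbb-bt*), without iNICD replicate 5 (*Hbb-bs*) and with sex as a covariate (*Hba-a2*). Their sums were 59.4 to 247.2 CPM in controls and 27.1 to 138.2 in iNICD libraries, and their part in the difference between genotypes at the 5 genes was not tested. Within genotypes r with the blood list was 0.614 for *Hint1* (permutation p = 0.0541, rho = 0.587, permutation p = 0.0606, adjusted p of r = 0.386) and 0.776 without the 2 libraries farthest from its median. For the other members it was −0.119 (*Nt5dc2*) to 0.517 (*Arl4a*). Lymphocyte, neuron and adipocyte markers were mostly below the filter, with 1 of 7 (*Cd3e*), 1 of 7 (*Stmn2*) and 2 of 5 (*Adipoq* and *Cfd*) tested and 0 called.

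**Figure D5:**
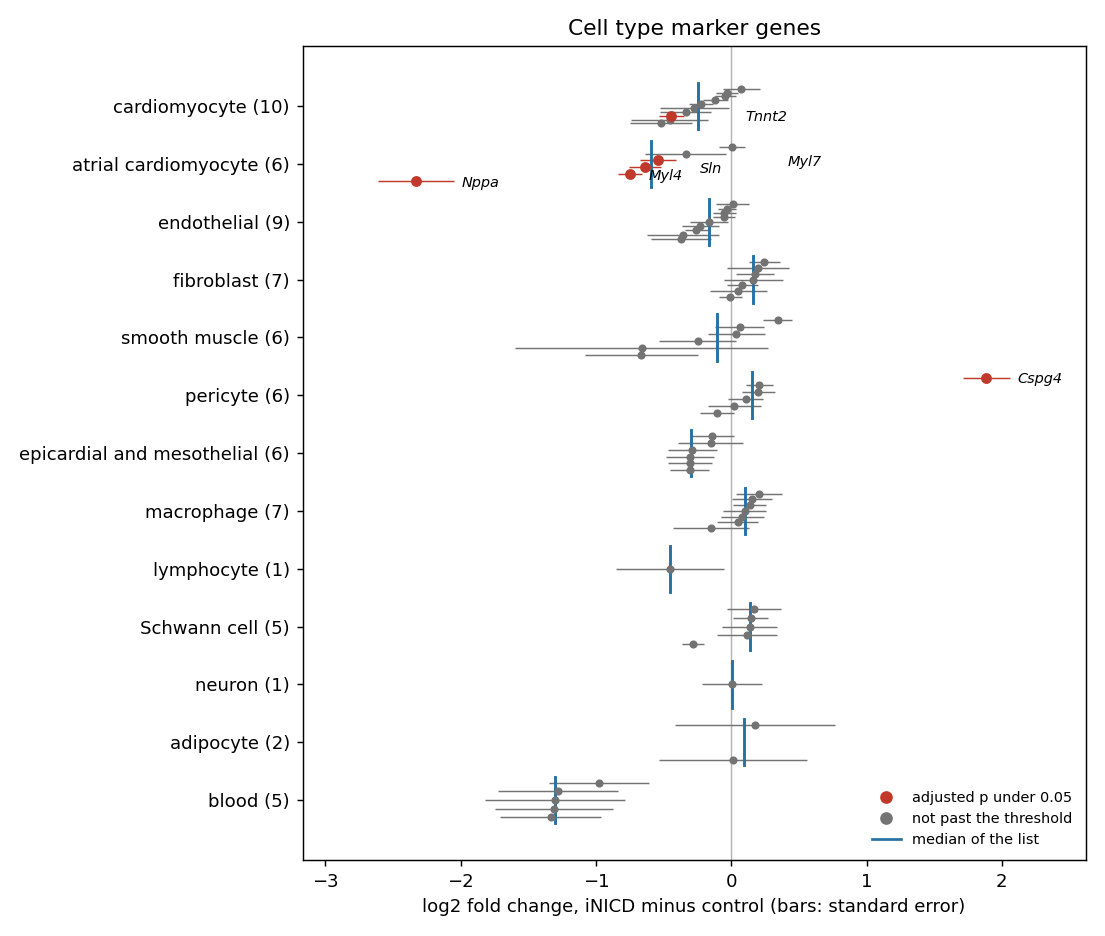
Log2 fold change (iNICD minus control) with its standard error for each tested cell type marker, by list, with the number tested in brackets, the median of each list as a blue line and called genes in red. The genes called lower are in the cardiomyocyte and atrial cardiomyocyte lists, and *Cspg4* is to the right of 0 in the pericyte list.

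Within genotypes none of the 5 genes followed 1 list past the threshold. Of 50 pairs of a member and 1 of 10 lists with at least 3 tested genes, 0 passed after adjustment (lowest adjusted p = 0.386) and 6 had an unadjusted p under 0.05 by permutation. These 6 differed from member to member. *Hint1* had r = 0.688 with cardiomyocyte markers (permutation p = 0.0255, rho = 0.692), and *Nt5dc2* had r = −0.567 (permutation p = 0.0467, rho = −0.545) with the same list. *Nt5dc2* also had r = −0.680 with smooth muscle markers (permutation p = 0.0226, rho = −0.685) and 0.653 with atrial cardiomyocyte markers (permutation p = 0.0311, rho = 0.413). The last value rested on control replicate 5 and iNICD replicate 4, without which r was −0.137. Without the 2 libraries farthest from the median of the member, r was 0.689 for *Hint1* with cardiomyocyte markers, and for *Nt5dc2* it was −0.478 with cardiomyocyte and −0.488 with smooth muscle markers. *Nacad* had r = 0.705 with epicardial and mesothelial markers (permutation p = 0.0365, rho = 0.441), and *Arl4a* r = −0.580 with endothelial markers (permutation p = 0.0388, rho = −0.608), and without the 2 farthest these were 0.412 and −0.466. The permutation p of rho over the 6 pairs was 0.0184 to 0.226. With 12 libraries of whole tissue, the 5 genes could not be tied to 1 cell type.

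The nearest tested genes on the chromosome were compared in the same fit. Of 10 such neighbours, 1 was called, where 4.12% of all tested genes were: *Gpx3*, a secreted glutathione peroxidase, 31952 bases from *Hint1* (log2 fold change −0.52, SE 0.11, adjusted p = 0.0210, edgeR). On its other side *Lyrm7* had a log2 fold change of −0.46 (adjusted p = 0.376, edgeR). Beside *Nacad*, *Ccm2* (−0.05) and *Tbrg4* (−0.12) did not pass, nor did *Smim4* (−0.34) beside *Nt5dc2*. Beside *Arl4a*, *Etv1* (0.08), 1134963 bases away, and *Scin* (0.71, adjusted p = 0.191, edgeR) did not pass, nor did *Ptp4a2* (−0.11) and *Gm12963* (0.13) beside *Adgrb2*.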

How the data were processed

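The table holds unnormalized read counts, as deposited by the authors, and a length in bases for each name. The rRNA-depleted libraries were read as single-end 50-base reads. The submitters' processing notes name cutadapt, STAR 2.4.2a, Subread featureCounts, edgeR and mm10, and the study's methods describe for the LA both STAR with Subread and, for stranded reads, TopHat2 with HTSeq. Which route made the table, and with which strand setting, is not given in the sources used here. Counts were normalized by TMM, genes above 1 CPM in at least 6 libraries were tested with edgeR 4.0.16 (quasi-likelihood, R 4.3.3, two-sided) and p was adjusted by the Benjamini-Hochberg method over 13541 genes, with a threshold of 0.05. Correlations used 100000 permutations within groups, or all 720 orders of 6 libraries. Positions and exon lengths are from GENCODE M21.

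The 5 members and the lists of relatives and markers were chosen with earlier results of these data known. Named genes were the members, their closest relatives, called genes of each list (up to 4 by adjusted p) or its 2 most abundant, the 3 most alike genes, neighbours and the 3 genes next in adjusted p. *Gm13054*, *Cyth4*, *Egfl7*, *Ckm*, *Kcnj3*, *Kcnj5*, *Hbb-bt*, *Hba-a2* and *Alas2* were named after their values were seen. Some genes that this rule names are not reported here.

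Totals were 21432632 to 27182038 counts per library, and no libraries were copies. Tested on simulated counts for 13541 genes, edgeR recovered 93% of 200 genes changed 2-fold between genotypes with 11 false calls, and 91.5% of 200 genes with a 4-fold interaction with 17 false calls. DESeq2 recovered 97% of the 200 genes changed between genotypes, with 37 of its 231 calls false. The changed genes were drawn only from the more abundant genes, so recovery among genes of low level was not examined. Alternatives were DESeq2 1.42.0, RLE size factors, other filters, sex as covariate, a replicate block, each sex alone and each library left out.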

Additional observations from a re-analysis of the deposited data

Results flagged for a closer look

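Of 50 groups of 6 libraries examined for a single library far from the rest, 2 held one, where chance alone gives about 2.5. The summed level of the nucleotidase list was 415.3 normalized CPM in control replicate 5, while the other controls had 332.7 to 353.4. This is also the library that stood apart on the first principal component. The summed level of the smooth muscle list was 329.4 normalized CPM in iNICD replicate 5, against 176.6 to 231.8 in the other iNICD libraries. No single library stood out in this way in the levels of the 5 genes themselves. For these genes that outcome is favoured by their choice, as genes with separate groups tend to vary little within a group.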

How the results depend on the processing

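The 5 genes kept their direction under all 21 alternatives, with log2 fold changes of −3.70 to −3.39 for *Nacad*, −1.25 to −1.16 for *Nt5dc2*, −0.81 to −0.72 for *Hint1*, −1.31 to −1.13 for *Arl4a* and −1.17 to −1.04 for *Adgrb2*, as the choice of the members fixes. Genes called lower numbered 181, but 444 with DESeq2 and 0 in males alone, and 90 to 310 with 1 library left out, among them 111 without control replicate 1, 100 without control replicate 4, 310 without control replicate 5, and 90, 120, 110 and 103 without iNICD replicates 1, 2, 3 and 4. The 2 called relatives became 4 with DESeq2, 4 in females alone, 0 in males alone and 2 to 5 with 1 library left out, and 5 without control replicate 5. The 6 called markers became 11 with DESeq2, 0 in males alone and 5 to 9 with 1 library left out, *Myl7* being lost in 8 of these 12 fits. In females alone *Tnnt2* was lost and *Ckm* was gained. With 2 males among the controls, males alone is a small comparison. Otherwise the cause was not tested. Whether replicate numbers in the titles pair the mice was not tested (r of −0.153 to 0.372 between libraries of a number, highest for the own number in 3 of 6). A replicate block by these numbers gave 136 genes called lower, 2 relatives and 7 markers. Under the numbers in the descriptions, which exchange 2 controls, the block gave 136, 1 (*Nt5c3*, without *Nt5c1a*) and 6. The sex difference passed for 0 members in edgeR and for 1 in DESeq2, *Hint1* (0.21). With 1 library left out, the sex difference of *Nacad* ran from −0.17 to 0.15. The interaction of sex and genotype was −0.23 to 0.54 for *Nacad*, −0.23 to 0.10 for *Nt5dc2*, −0.062 to 0.043 for *Hint1*, −0.059 to 0.34 for *Arl4a* and −0.0092 to 0.29 for *Adgrb2*. For *Hint1* it turned from 0.0069 to −0.014 with DESeq2, −0.014 with RLE size factors and −0.0087 without the filter. No correlation passed under any alternative run. Depth limits *Nacad* most, at 31 to 101 counts in iNICD libraries.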
